A study of Homo sapiens with 14 samples.

Results

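The 391 intervals described here are stretches of DNA near gene starts that were recovered with a BCL6 antibody from inhibitor-treated DLD-1 cells and that share at least 1 bp with a peak recovered with a STAT5 antibody from control DLD-1 cells. They are every distinct interval of the authors' deposited list that carries values of both groups, and they make up 23.7% of the 1652 distinct inhibitor BCL6 intervals. The 4 separate lists of the series hold 152412 distinct intervals in all. The remaining 1261 inhibitor BCL6 intervals, which share no base with a control STAT5 peak, serve as the comparison throughout. Because the overlap itself chose the members, their number says nothing about chance and was not tested.

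The series is chromatin immunoprecipitation with sequencing (ChIP-seq) in DLD-1, an established human colorectal adenocarcinoma line, at passage 10-14. It has 14 libraries in 6 groups. The inhibitor BCL6 group (3 libraries) received the plasmid pEGFP-C1199Tiam1, which codes for part of TIAM1, an activator of the small GTPase RAC1, and then 20 microM EHT 1864, a RAC inhibitor, for 16 h; its antibody was BCL6 (N-3). The control STAT5 group (2 libraries) received an empty vector and the antibody STAT5 (C-17). The control BCL6 group (2 libraries, empty vector) and the activator STAT5 group (2 libraries, the TIAM1 plasmid with vehicle) are used for position only. Chromatin of every group was taken 20 h after transfection, and the plasmid was introduced by lipid transfection, so the cells analysed were a transfected population and not a selected clone. No group combines the inhibitor with the empty vector, so the plasmid and the inhibitor cannot be told apart against the control. The antibody and the treatment also differ together between the members' 2 sets of libraries. Whether libraries of 1 group stem from separate cultures is not in the labels, and p-values then measure only the spread between these libraries, which may be technical.

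STAT5 and BCL6 are transcription factors that recognise closely similar DNA sequences. STAT5 mostly activates its target genes once phosphorylated, whereas BCL6 recruits corepressors and lowers transcription, so one factor can replace the other at a shared site. RAC1 acts through kinases of the PAK family, and the series title names a switch between both factors under this signalling; the list asks which places with STAT5 in control cells carried BCL6 under the inhibitor.

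A member reached into the window from 250 bases upstream to 50 bases downstream of the start at 16 genes with a symbol. This is the part of a gene where a factor sits on the core promoter. No such count was made for the remaining intervals. Within 250 bp on either side of any listed gene start lay 12.8% of members, 13.6% of the remaining intervals and 13.4% of all inhibitor BCL6 intervals. The upstream 250 bases of 4 of these promoters are shown because a member spans the gene start (ALKBH7, an AlkB-family protein of mitochondria, and ACSM4, a medium-chain acyl-CoA synthetase), covers much of the stretch (MRPL55, a protein of the mitochondrial ribosome) or lies in the dense stretch of chromosome 2 described below (TMEM17, a protein of the ciliary transition zone). The sequences are from RefSeq (GRCh38.p14), 5′ to 3′ on the gene's strand and end at the base before the RefSeq start, which may differ from the gene start used in the authors' list. Capitals would mark the spaced palindrome TTCNNNGAA, the core of a STAT5 site; none of the 4 holds it, so all letters are in lower case.
ALKBH7: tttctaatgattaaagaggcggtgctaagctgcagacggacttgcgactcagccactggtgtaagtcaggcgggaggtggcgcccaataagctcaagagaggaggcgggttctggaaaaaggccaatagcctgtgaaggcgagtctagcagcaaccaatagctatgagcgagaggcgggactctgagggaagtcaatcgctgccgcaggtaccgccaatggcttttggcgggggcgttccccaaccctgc
ACSM4: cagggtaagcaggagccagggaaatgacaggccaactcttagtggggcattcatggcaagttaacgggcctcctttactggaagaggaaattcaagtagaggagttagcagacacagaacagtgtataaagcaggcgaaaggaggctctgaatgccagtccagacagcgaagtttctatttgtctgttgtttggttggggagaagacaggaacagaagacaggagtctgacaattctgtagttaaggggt
MRPL55: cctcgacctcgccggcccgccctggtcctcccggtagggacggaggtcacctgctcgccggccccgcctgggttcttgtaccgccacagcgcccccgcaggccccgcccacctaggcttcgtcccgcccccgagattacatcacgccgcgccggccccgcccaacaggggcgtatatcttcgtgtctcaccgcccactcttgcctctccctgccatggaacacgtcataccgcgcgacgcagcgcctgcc
TMEM17: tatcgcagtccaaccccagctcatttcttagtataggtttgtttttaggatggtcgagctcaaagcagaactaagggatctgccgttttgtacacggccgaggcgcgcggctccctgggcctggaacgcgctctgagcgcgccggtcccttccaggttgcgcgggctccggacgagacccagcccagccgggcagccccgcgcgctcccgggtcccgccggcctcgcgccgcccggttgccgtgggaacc

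Of the 16 genes, 9 were found in the RefSeq promoter table with 12 promoter entries, and 0 of the 12 held in their 250 upstream bases the motif TTCNNNGAA, which reads the same on both strands. Among all 35116 entries of that table, 2306 (6.57%) held it in the same stretch. The longer form TTCCTAGAA, searched on both strands and contained in the first motif, was in 0 of the 12 and in 110 of all entries (0.313%). These counts describe letters in the reference and say nothing about the factors.

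A second set of sequences belongs to microRNA genes, short RNAs that silence messenger RNAs through bases 2 to 8, the seed. Members lay near 4 microRNA genes, of which 3 have a mature sequence in the RefSeq table. The seeds are in capitals. MIR192 and MIR194-2 lie side by side on chromosome 11 and are known for their high level in intestinal epithelium, and 1 member is listed for both.
miR-192-5p: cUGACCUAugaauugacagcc
miR-192-3p: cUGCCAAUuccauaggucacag
miR-194-5p: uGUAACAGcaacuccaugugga
miR-194-3p: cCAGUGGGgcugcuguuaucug
miR-1200: cUCCUGAGccauucugagccuc

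No seed is shared among these 5 sequences. The member at MIR192 and MIR194-2 (chr11:64660800-64660993, GRCh37 as in all positions that follow) had the lowest possible value in all 3 inhibitor BCL6 libraries, 2, 2 and 2, and control STAT5 values of 5 and 0. It ended 2082 bp upstream of MIR192. The member at MIR1200 (chr7:36961513-36961683) had inhibitor BCL6 values of 4, 2 and 3 and control STAT5 values of 2 and 0. At both places the control STAT5 signal came from library 1 alone.

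Each value is a whole number per interval and library, read here as a count of reads. Every inhibitor BCL6 value was at least 2, so each interval had a value in each library, while a control STAT5 value was 0 or at least 2. Throughout, inhibitor BCL6 values are given for libraries 1, 2 and 3 in that order, and control STAT5 values for libraries 1 and 2. The sources used here give no library depth; the values of all inhibitor BCL6 intervals summed to 4390, 4606 and 5544, of which the members held 1037, 1076 and 1314. Neighbouring intervals can repeat a value: at chr2:55448763-55448782 and chr2:55448846-55449034 the first library had 12 in both. A high value can therefore belong to a stretch wider than the interval.

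The members' values did not separate them from the remaining inhibitor BCL6 intervals. The mean value was 2.65 against 2.66 in library 1, 2.75 against 2.80 in library 2 and 3.36 against 3.35 in library 3, and the median was 2 on each side in each library. On the log2 scale the mean of members minus that of the remaining intervals was -0.002, 0.0391 and 0.0579. The mean difference over libraries was 0.03 ± 0.03 (SD, n = 3; exact two-sided sign-flip permutation p = 0.5), and 3 libraries cannot give a p below 0.25. On linear values the mean difference was -0.016, which turns the direction.

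The share of values of 5 or more differed in 1 library. In library 3 a value of 5 or more was found at 83 members (21.2%, exact Clopper-Pearson 95% interval 17.3 to 25.6%) and at 15.1% (13.1 to 17.2%) of the remaining intervals. Libraries 1 and 2 did not share that gap: the shares were 5.63% against 5.79% and 7.16% against 7.45%. In library 2 a value of exactly 2 was less frequent among members, 60.1% against 66.3%. There a value of 4 was more frequent, 14.1% (10.8 to 17.9%) against 9.12% (7.59 to 10.8%). These shares were not matched for interval width, which is larger among members, and were not tested. All intervals on shares cover counting error only, and PCR copies of a read cannot be told from separate molecules here.

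**Figure D1:**
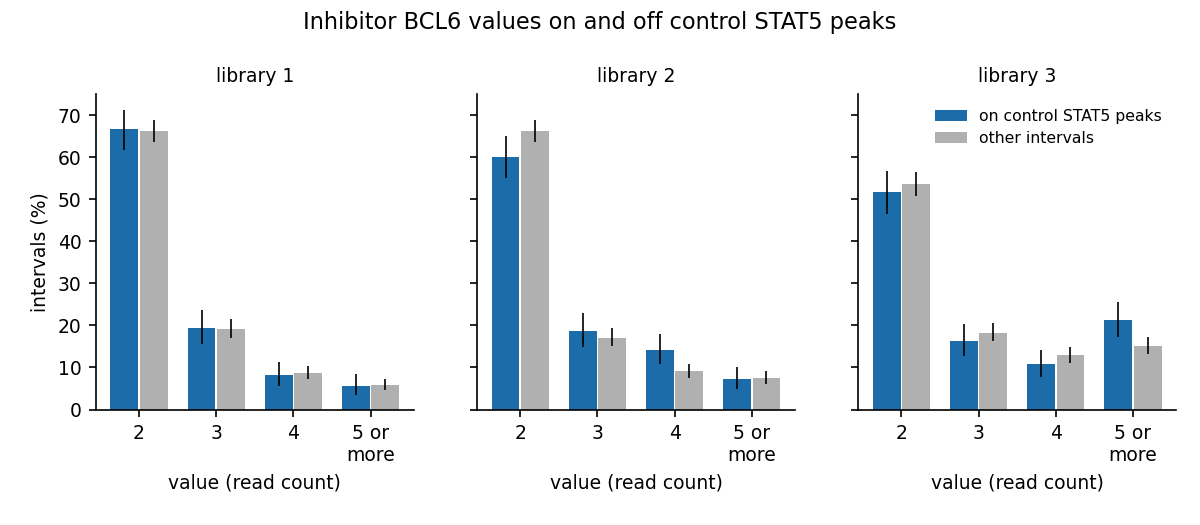
Share of intervals (y axis, percent) by value (x axis, read count of 2, 3, 4, or 5 and more) in each of the 3 inhibitor BCL6 libraries, for the 391 members (blue) and the 1261 remaining intervals (grey); lines are exact 95% intervals for counting error. The bars nearly coincide in library 1, while in library 3 the class of 5 or more holds 21.2% of members and 15.1% of the remaining intervals.

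All inhibitor BCL6 libraries reached at least 3 at 27 of the 391 members (6.91%, 4.60 to 9.89%), beside 6.05% of all inhibitor BCL6 intervals and 73 (5.79%) of the remaining ones. The share depends on how many libraries must pass: without inhibitor BCL6 library 1, 2 or 3 the share would be 19.7%, 16.6% or 13.04%. All libraries reached at least 4 at 9 members (2.30%) and 24 of the remaining intervals (1.90%). At the other end, 82 members (21.0%) had exactly 2 in all 3 libraries, against 24.7% of the remaining intervals. Of the 27 members, 14 had a gene symbol, 11 lay on chromosome 2 and only 3 had a value in both control STAT5 libraries. Symbols and places on chromosome 2 were not counted for the 73 remaining intervals.

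Some of the members with a gene symbol and at least 3 in every inhibitor BCL6 library are described next, and the roles of their genes were not compared. PUS10, a pseudouridine synthase that modifies RNA, had a member from -734 to -490 bp relative to its start (chr2:61245879-61246123) with inhibitor BCL6 values of 5, 4 and 3 and control STAT5 values of 3 and 3. It was the only one of the 27 with at least 3 in every inhibitor BCL6 and every control STAT5 library. NRIP3, known as a nuclear receptor interacting protein, had 5, 3 and 4 at chr11:9026760-9026981 and control STAT5 values of 6 and 0. KRT26, a keratin of the hair root sheath, had 4, 4 and 6 at chr17:38930355-38930468 and control values of 2 and 0. At NRIP3 and KRT26 the second control STAT5 library had no value.

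PIGF takes part in building the glycosylphosphatidylinositol anchor of membrane proteins; its member spanned only 17 bp (chr2:46846451-46846467) and had 3, 5 and 6, with control STAT5 values of 0 and 4. PIGBOS1 codes for a small mitochondrial protein and had a pair of members, with 5, 4 and 5 at chr15:55613397-55613495 and 5, 4 and 2 at chr15:55613065-55613228. Their listed control STAT5 values were 2 and 0 at the first and 0 and 2 at the second, where the overlapped peak itself has 3 and 2. CNPPD1 had 3, 4 and 9 at chr2:220043979-220044210, with its highest value in library 3. A member of 7 bp (chr10:102746795-102746801) lay downstream of the start of MRPL43, of the mitochondrial ribosome, and upstream of that of C10orf2, the mitochondrial DNA helicase. It had 3, 3 and 5.

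FBXO48, an F-box protein gene, was the only gene start with a symbol to have 3 members. Their inhibitor BCL6 values were 3, 4 and 3 at chr2:68693746-68693846, 3, 3 and 4 at chr2:68695780-68695800 and 2, 3 and 2 at chr2:68695859-68696033. The first of them also lay from -948 to -848 bp relative to the start of APLF, a factor of DNA end joining on the other strand. Control STAT5 values were 2 and 0 at the first and 0 and 3 at the others, so no single control library covered all of them. FANCL, the ubiquitin ligase of the Fanconi anaemia pathway of DNA crosslink repair, had a pair of members. One lay 53 to 117 bp downstream of the start (chr2:58468390-58468454) with 3, 3 and 6 and listed control STAT5 values of 0 and 2, where the overlapped peak has 2 and 2. The other lay from -1384 to -1269 bp (chr2:58469776-58469891) with 2, 3 and 5 and control STAT5 values of 2 and 0. The upstream member shares 3 bp with its control STAT5 peak.

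The 3 highest members by the sum over the inhibitor BCL6 libraries carried no gene symbol or were a repeat copy. The highest was at chr4:49155314-49155536, near the centromere of chromosome 4, with 12, 7 and 12 and control STAT5 values of 0 and 3. A second member near that centromere (chr4:49512853-49513042) had 4, 4 and 10 and the highest control STAT5 value of all members, 13 in library 2. Its listed value in library 1 is 0, where the overlapped peak has 3. The next in order was at chr17:45234277-45234559, with 7, 8 and 10 and control STAT5 values of 0 and 2. DUX4L50, a pseudogene copy of the DUX4 repeat, had 15, 2 and 6 at chr9:68413372-68413591. A member near the centromere of chromosome 2 (chr2:91764006-91764134) had 10, 2 and 5 and control STAT5 values of 0 and 9. Reads of near-identical copies may be placed at either copy, so the values at DUX4L50 and at the 3 places near centromeres are uncertain. At those 3 places the interval begins or ends at the base next to a control BCL6 peak, and at DUX4L50 5 bp from one.

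Among the other high members with a symbol, LINC00309, a long intergenic RNA gene, had 3, 6 and 12 at chr2:64432140-64432348 and control STAT5 values of 0 and 4. EML4, which binds microtubules, had 2, 7 and 6 at chr2:42394231-42394560, the widest member at 330 bp. TROVE2, which codes for the RNA-binding Ro60 protein, had 2, 7 and 6. GDAP1L1 had 2, 4 and 8 with control STAT5 values of 2 and 5, and the olfactory receptor gene OR10V1 had 2, 4 and 8 with control values of 5 and 0. In each of these 4 protein-coding genes library 1 stood at the floor of 2, so the sum came from libraries 2 and 3.

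**Figure D2:**
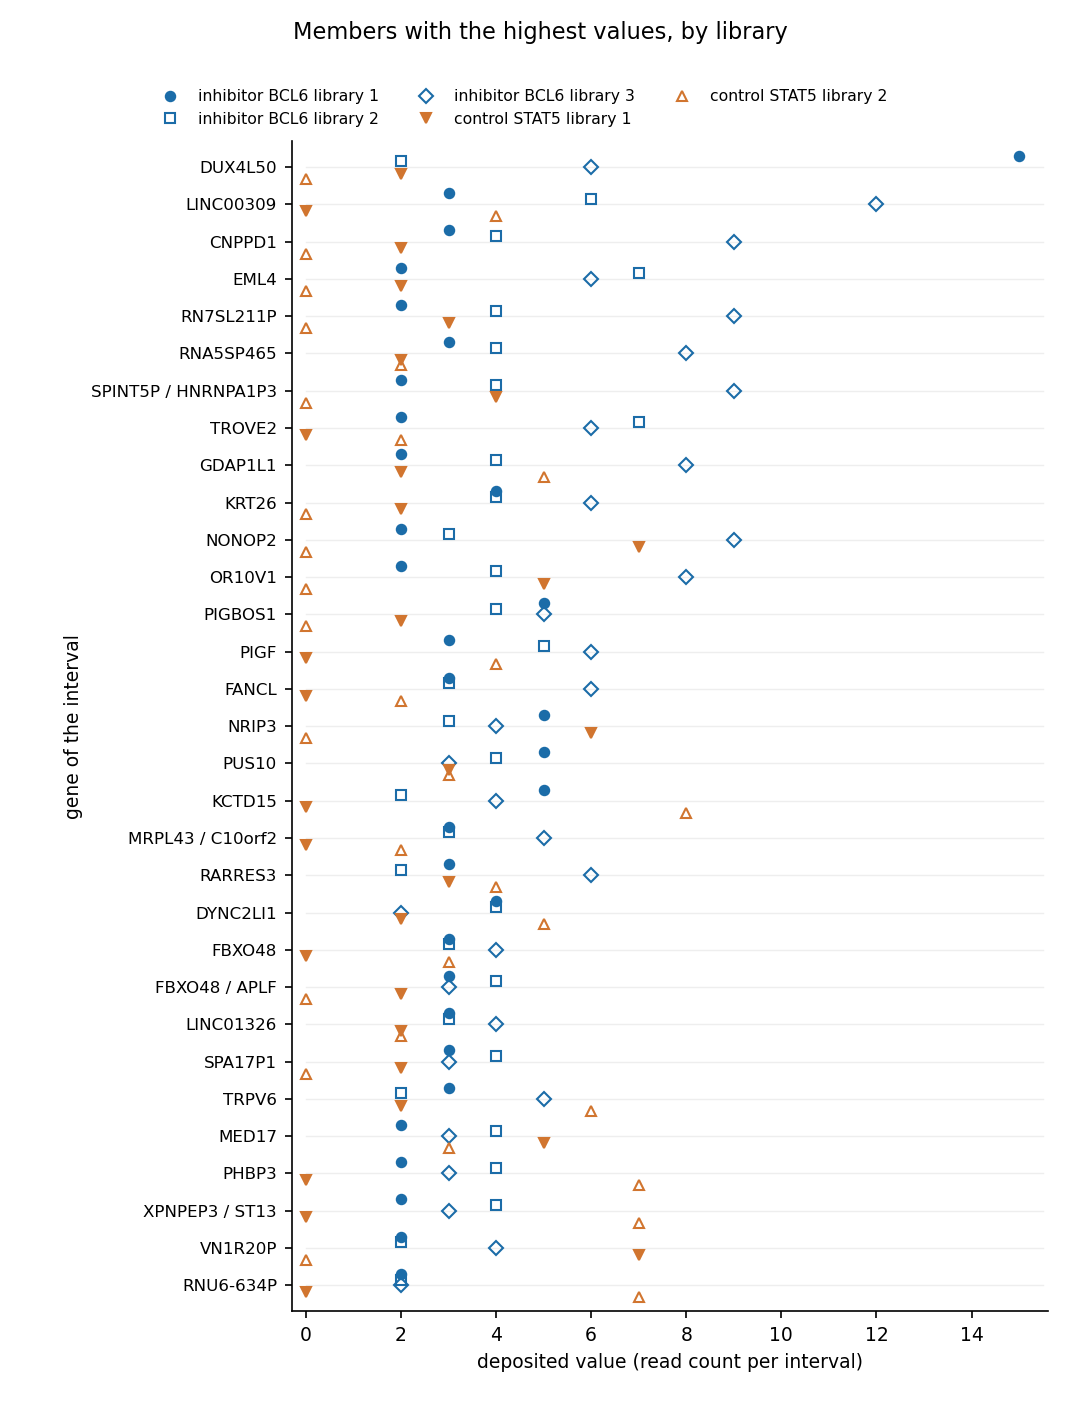
Deposited value (x axis, read count per interval) of members with a gene symbol (y axis) that are highest by the sum over inhibitor BCL6 libraries or over control STAT5 libraries, or that reach 3 in every library of either group; each marker is 1 library, blue for inhibitor BCL6 and orange for control STAT5, and markers of 1 gene are set apart vertically. Inhibitor BCL6 markers start at 2 and reach 15 at DUX4L50, and most genes have a control STAT5 marker at 0.

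The STAT5 side of the overlap rested mostly on single control libraries. A listed value in both control STAT5 libraries was found at 41 of the 391 members (10.5%, 7.63 to 14.0%). By the peaks' own values, an unlike measure taken up below, 9.34% of all 68320 control STAT5 intervals had both. Control library 1 alone gave the value at 159 members (40.7%) and control library 2 alone at 191 (48.8%). By the listed values, the overlap would hold 232 members without control STAT5 library 1 and 200 without control STAT5 library 2. By the values of the overlapped peaks, an alternative chosen after seeing the data, it would hold 245 and 223. Values of the members ran from 0 to 8 in control library 1 and from 0 to 13 in control library 2.

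Control values in the list of members can differ from those of the peak they lie on. Of 387 members on a single control STAT5 peak, 347 carried its 2 values unchanged and 40 did not, 36 of them with a 0 where the peak has a value and 4 with a higher value than the peak in a library. SFTA1P belongs to both kinds, with 0 and 5 where the peak has 4 and 2. By the peak's own values, 77 members (19.7%, 15.9 to 24.0%) lay on a peak present in both control libraries. Counted by peak, 74 of the 378 control STAT5 peaks under a member (19.6%, 15.7 to 23.9%) had both values, against 9.34% of all 68320. Wider control peaks more often have both values: among peaks over 400 bp, 66.7% (55.7 to 76.4%) of the 87 under a member had both, against 55.3% (54.3 to 56.4%) of all 8117 of that width. Among those over 300 and up to 400 bp the shares were 9.93% (5.67 to 15.9%) and 6.04% (5.77 to 6.32%), and from 250 to 300 bp 0.714% and 0.471%. Width classes were chosen after values had been seen, and the difference was not tested.

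A value of at least 3 in both control STAT5 libraries was found at 6 members (1.53%), of which 3 had a gene symbol. RARRES3, a retinoid-induced phospholipase gene, had control STAT5 values of 3 and 4 and inhibitor BCL6 values of 3, 2 and 6 at chr11:63303337-63303397, from -937 to -877 bp. MED17, a subunit of the Mediator complex that links factors to RNA polymerase II, had control values of 5 and 3 and inhibitor values of 2, 4 and 3 in a member of 11 bp (chr11:93516208-93516218). PUS10, described above, was the third. A further member, without a symbol, had the highest such pair, 8 and 4, with 2, 5 and 7 in the inhibitor libraries at chr11:85195029-85195330.

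Other members were high in control STAT5 mainly through 1 library. KCTD15 had 0 and 8 with inhibitor BCL6 values of 5, 2 and 4. ST13, a cochaperone of HSP70, and XPNPEP3, an aminopeptidase, start close together on opposite strands and share a member (chr22:41253876-41253943) with control values of 0 and 7 and inhibitor values of 2, 4 and 3. TRPV6, the calcium channel of intestinal epithelium, had 2 and 6, with 3, 2 and 5 in the inhibitor libraries at chr7:142585032-142585216, from -1709 to -1525 bp. DYNC2LI1, of the ciliary dynein motor, had 2 and 5 with 4, 4 and 2. At KCTD15, TRPV6 and DYNC2LI1 control library 2 was the higher one, and at NRIP3 and OR10V1 control library 1.

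The overlap was partial at many members. A control STAT5 peak contained 224 members (57.3%) whole, and 4 members touched 2 peaks. The shared length had a median of 75 bp and ran from 1 to 313 bp, and 20 members shared fewer than 10 bp. Some of these are intervals under 10 bp that lie wholly inside a peak, such as the member of 7 bp at MRPL43. Among members with a symbol the fewest shared bases were at TUBGCP3, a gene of the microtubule-nucleating gamma-tubulin complex. Its member is a single base wholly inside the peak (chr13:113242810-113242810), with 2, 4 and 3 and control values of 0 and 2. Next came the bitter taste receptor gene TAS2R46 and the upstream member of FANCL, where 3 bp are shared. A further 3 members, without a symbol, share 2 bp each, and the one at chr9:6567259-6567260 is itself only 2 bp wide. Just outside the rule, the interval at LINC00867 (chr10:120115235-120115291; 3, 2 and 4) ends or begins at the base next to a control STAT5 peak, and those at SYTL1 (3, 2 and 3) and CASP12 (2, 3 and 2) lie 2 bp from one.

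Members were wider than the remaining intervals. Their median width was 105 bp (quartiles 58 and 164 bp) against 79 bp (37 and 141 bp). The overlap rule itself favours wider intervals, because they have more bases that can meet a peak. The width difference is therefore no separate trait of the members, and how far it exceeds the effect of the rule was not tested. Intervals under 50 bp were 20.5% of members and 33.6% of the rest. The share of inhibitor BCL6 intervals on a control STAT5 peak was 15.9% (11.7 to 20.9%) at widths up to 25 bp, 16.4% at 26 to 50 bp, 23.9% at 51 to 100 bp, 28.9% above 100 and up to 150 bp and 29.0% (24.6 to 33.7%) above that. Among intervals of at least 50 bp, all libraries reached at least 3 at 6.11% of members and 5.97% of the rest.

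**Figure D3:**
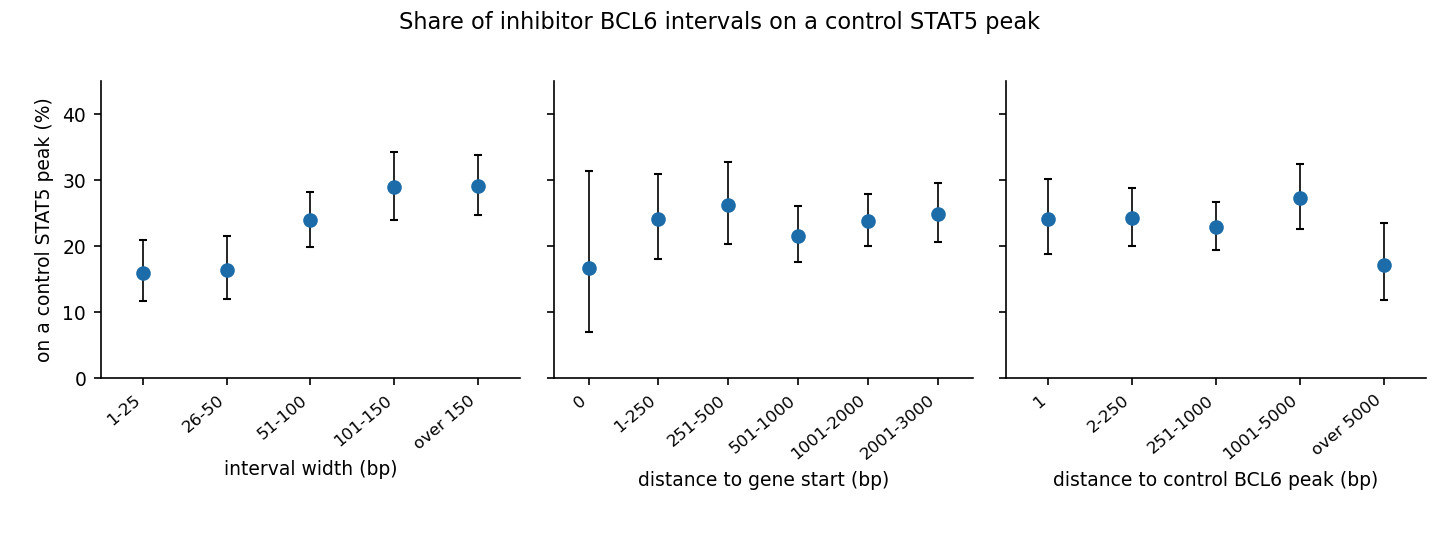
Share of inhibitor BCL6 intervals that lie on a control STAT5 peak (y axis, percent) by interval width, by distance to the nearest gene start and by distance to the nearest control BCL6 peak (x axes, bp); points are shares over all 1652 intervals and lines exact 95% intervals for counting error. The share is higher at larger widths, from 15.9% to 29.0%, and shows no steady trend with distance from the gene start. The overlap rule itself favours wider intervals.

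Position about gene starts was nearly the same on and off control STAT5 peaks. A gene start was spanned by or lay within 500 bp of 104 members (26.6%, 22.3 to 31.3%), beside 25.8% of all inhibitor BCL6 intervals and 25.6% of the remaining ones. Only 7 members (1.79%) spanned a gene start, against 35 of the remaining intervals (2.78%). Of the members, 295 (75.4%) lay wholly upstream and 89 (22.8%) wholly downstream of the nearest start, against 75.7% and 21.6% of the rest. The listed window itself runs from 3000 bp upstream to 1000 bp downstream, so most of it is upstream. The median distance was 1103 bp for members and 1036 bp for the rest.

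Most members at the promoters of protein-coding genes had values near the floor of 2. ALKBH7 was spanned from -215 to 55 bp (chr19:6372230-6372500) with 2, 5 and 6 and control STAT5 values of 2 and 0, the highest of this set. ACSM4 was spanned from -94 to 113 bp (chr12:7456818-7457025) with 2, 2 and 3. MRPL55 had 2, 2 and 2 from -316 to -121 bp, and TMEM17 had 2, 2 and 3 from -310 to -177 bp. C1GALT1C1L (3, 2 and 2), METAP1D, a mitochondrial methionine aminopeptidase (2, 2 and 3), and FAM166A (2, 3 and 2) had members between -269 and -162 bp. ART5 had 2, 2 and 2, and USO1, a tether of transport vesicles, had 2, 2 and 5. Apart from ALKBH7 and USO1, no gene named in this paragraph exceeded 3 in a library.

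**Figure D4:**
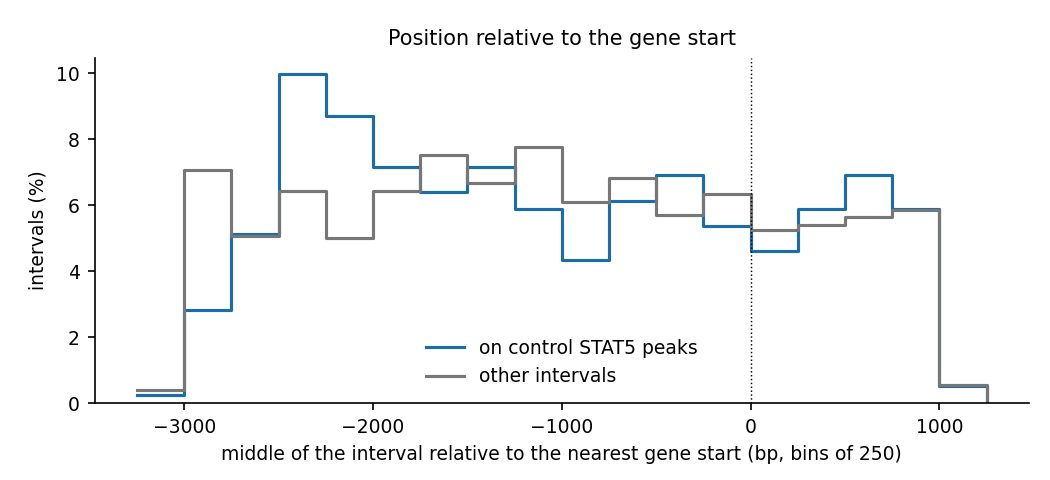
Share of intervals (y axis, percent) by the position of their middle relative to the nearest gene start (x axis, bp, bins of 250 bp; negative is upstream), for members (blue) and the remaining inhibitor BCL6 intervals (grey). The lines stay close along most of the window, with members higher from -2500 to -2000 bp and lower from -3000 to -2750 bp. At that outer edge, control STAT5 peaks that begin beyond the listed window may be missing.

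Far upstream the distributions differed. The 250 bp from -2500 bp held 39 members (9.97%) and 6.42% of the remaining intervals, and the next 250 bp held 34 members (8.70%) and 5.00%. At the outer edge, from -3000 to -2750 bp, the order turned, with 11 members (2.81%) and 7.06% of the rest. The listed window ends at 3000 bp upstream, so a control STAT5 peak reaching in from beyond that edge may be unlisted. An inhibitor BCL6 interval under such a peak would count among the rest, and how far this lowers the members' share there was not tested. These differences were seen after the fact and were not tested.

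Members lay at protein-coding genes, pseudogenes and non-coding RNA genes in shares close to those of the other inhibitor BCL6 intervals. The members are listed for 417 gene starts, 252 of them with a symbol, and 249 symbols were matched to RefSeq: 173 protein-coding genes, 56 pseudogenes, 4 transcribed pseudogenes, 10 long non-coding RNA genes, and a few others. A protein-coding gene start was listed for 171 members (43.7%, 38.8 to 48.8%), beside 41.5% of all inhibitor BCL6 intervals and 40.8% of the remaining ones. A symbol was listed for 62.9% of members and 58.9% of the rest. More than 1 gene start was within reach of 44 members (11.3%) and of 9.20% of the rest.

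Few genes of any pathway list had a member, as few genes had one at all: of the 20056 protein-coding genes in RefSeq, 173 (0.863%) had a member and 503 (2.51%) one of the remaining inhibitor BCL6 intervals. Counts of 0 or 1 per list are near that share and are given as a description. Of 112 DNA repair and damage signalling genes, 1 had a member, FANCL, while 103 of the 112 had a control STAT5 interval and 3 had one of the remaining inhibitor BCL6 intervals. APLF and POLQ, which are also end joining genes with a member, are not on that list. Of 61 STAT and BCL6 targets and JAK-STAT genes, 0 had a member, 4 had a remaining interval and 50 a control STAT5 interval. Control STAT5 intervals were also listed for 44 of 51 RAS, MAPK and PI3K genes, 52 of 66 WNT pathway genes and 25 of 35 long adhesion and fragile-site genes. The share of all genes with a control STAT5 interval was not computed, so these counts set no list apart. Of 53 cell cycle genes, 1 had a member: CDKN2C, the p18 inhibitor of CDK4 and CDK6, with 3, 2 and 3 at chr1:51427240-51427316, 822 to 898 bp downstream, and control values of 0 and 2.

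Of 66 WNT pathway genes, 51 RAS, MAPK and PI3K genes, 34 apoptosis genes, 34 corepressor and chromatin genes and 113 histone genes, 0 had a member. The remaining inhibitor BCL6 intervals were listed for 1, 4, 0, 0 and 0 of them. Among markers of cell types, 0 of 20 colon epithelium genes, 0 of 8 B cell genes and 0 of 9 fibroblast and endothelial genes had a member. ChIP intervals do not measure expression, so these markers do not check the cell line. Of 35 very long adhesion and fragile-site genes, 2 (5.71%) had a member, beside 0.863% of protein-coding genes, and none of the remaining intervals fell at one. The count is too small to set the members apart and was not tested. CTNNA3, an alpha-catenin, had 2, 2 and 6 at chr10:69458708-69458787, and CSMD3, a large transmembrane protein, had 2, 2 and 3 at chr8:114452133-114452219. Both lay 2781 bp or more upstream.

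The large gene families hold many genes, and a small share of each had a member: 29 of 6027 small RNA genes (0.481%), 11 of 1984 ribosomal protein genes and pseudogenes (0.554%) and 5 of 864 olfactory receptor genes (0.579%), beside 0.417% of all 59778 RefSeq symbols. Long intergenic and antisense RNA genes stood lower, at 12 of 4463 (0.269%). Zinc finger genes stood at 3 of 577 (0.520%), beside 0.863% of protein-coding genes. Small RNA genes and their pseudogenes were listed for 30 members (7.67%) and 5.31% of the remaining intervals. Among those with a symbol the highest were RN7SL211P, a copy of the signal recognition particle RNA, with 2, 4 and 9, and RNA5SP465, a 5S ribosomal RNA pseudogene, with 3, 4 and 8. A member without a symbol at a copy of SNORA43, a small nucleolar RNA (chr3:8973620-8973752), had 2, 2 and 14. Ribosomal protein genes and pseudogenes were listed for 12 members (3.07%) against 1.98%. Of these, RPS27A, which codes for ubiquitin fused to a ribosomal protein, had 2, 2 and 5 from 27 to 176 bp downstream of its start (chr2:55459067-55459216) with control STAT5 values of 4 and 2, and RPL7A had 2, 2 and 2. Olfactory receptor genes were listed for 5 members (1.28%) and 1.27% of the rest, zinc finger genes for 3 (0.767%) and 1.27%, and long intergenic and antisense RNA genes for 11 (2.81%) and 4.76%. No test was made of these shares.

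The members were spread over the autosomes with a concentration on the short arm of chromosome 2. Between 30 and 75 Mb of chromosome 2 lay 50 members (12.8%, 9.64 to 16.5%), beside 9.26% of all inhibitor BCL6 intervals and 8.17% (6.72 to 9.82%) of the remaining ones. Put the other way, 32.7% (25.3 to 40.7%) of the 153 inhibitor BCL6 intervals in that stretch lay on a control STAT5 peak, against 22.7% (20.6 to 24.96%) of the 1499 elsewhere. The stretch also held 10 of the 27 members with at least 3 throughout, among them PIGF, FANCL, PUS10, LINC00309, APLF and FBXO48. No such count was made for the remaining intervals with at least 3 throughout, so it does not set the members apart. The stretch was known from earlier results of these data, and its difference was not tested. Chromosome 2 as a whole held 79 members, chromosome 1 held 43, chromosome 11 held 30 and chromosome 7 held 29.

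Some members stood in groups, about as often as inhibitor BCL6 intervals in general. Joined within 500 bp the members formed 373 places, of which 16 (4.29%) held 2 or more, and all inhibitor BCL6 intervals formed 1570 places, of which 77 (4.90%) did. Among gene starts, 19 had at least 2 members. At NUP93, a scaffold nucleoporin, the members had 2, 2 and 5 and 2, 2 and 3, with control STAT5 values of 2 and 2 at each. ANKRD53, ESPNL, COA1 and TAS2R46 also had a pair of members each. At 42 of the 417 gene starts (10.1%) an inhibitor BCL6 interval off control STAT5 peaks was listed as well.

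Relative to control BCL6 peaks, members and the remaining inhibitor BCL6 intervals lay at similar distances. No inhibitor BCL6 interval shared a base with a control BCL6 peak, but 57 members (14.6%, 11.2 to 18.5%) began or ended at the base next to one, beside 14.3% of all inhibitor BCL6 intervals and 14.2% of the remaining ones. A control BCL6 peak lay within 1000 bp of 68.8% of members and 69.1% of the rest. Only 1 of the 1261 remaining intervals lay directly beside a control STAT5 peak. Intervals that share a base with such a peak are members by the rule, so this count is not comparable with those for control BCL6 peaks. The gene starts of the members were also in the control BCL6 list in 370 of 417 cases (88.7%), against 86.6% for those of the remaining intervals.

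Activator STAT5 intervals lay within 1000 bp of 96 members (24.6%) and 22.4% of the rest. A base was shared with an activator STAT5 interval by 11 members (2.81%, 1.41 to 4.98%) and 63 of the remaining intervals (5.00%). Activator STAT5 intervals share no base with control STAT5 peaks, so at these 11 members each STAT5 list covers a different part of the interval. The 224 members wholly inside control STAT5 peaks could not share a base with an activator STAT5 interval. The overlap rule thus lowers the members' share, which is not comparable with that of the remaining intervals. At TMEM216, a protein of the ciliary transition zone, the member (chr11:61160440-61160647; 2, 4 and 5) shared 15 bp with an activator STAT5 interval and 99 bp with a control STAT5 peak. At AHRR, the repressor of the aryl hydrocarbon receptor (chr5:269816-269880; 2, 2 and 2), it shared 8 and 57 bp, and at DIEXF (chr1:209998654-209998796; 3, 3 and 2) 32 and 111 bp.

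Some genes outside the naming rule, picked after their values had been seen because their roles are well known, had low to middling values. At HES1, the repressor that acts downstream of Notch, the member lay 337 to 420 bp downstream of the start (chr3:193854272-193854355) with 2, 2 and 2 and control STAT5 values of 0 and 3. HOXB13, a homeobox gene of the hindgut, had 3, 2 and 2 at chr17:46807090-46807267. RARG, a retinoic acid receptor gene, had 4, 2 and 3 at chr12:53625567-53625635. POLQ, the polymerase of microhomology-mediated end joining, had 2, 4 and 3 at chr3:121267081-121267340. ENO1, a glycolytic enzyme, had 2, 3 and 6 from -557 to -433 bp (chr1:8939741-8939865). MDH1, the soluble malate dehydrogenase, had 2, 7 and 2 (chr2:63813555-63813629). The control STAT5 values at all 6 came from 1 library only.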

How the data were processed

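ChIP-seq intervals were taken from the authors' deposited lists, per the file headers with GRCh37 positions, a width in bp, a signed distance in bp to a gene start and 1 value per library. The deposited values were read as counts of reads: whole numbers, not scaled, with the quantity not named in the headers. Per the submitters' processing notes CASAVA 1.8.2, Bowtie 0.12.7 and GRCh37 were used, with no role given; the sources used here do not give the peak caller or its threshold. Each column was assigned to its sample by the condition and library number it names. The 5 libraries of activator BCL6 and inhibitor STAT5 are not analysed here.

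Each distinct interval was counted once, and an overlap needed 1 shared bp. Library depth is unknown and values are truncated at 2, so no count model was fitted. Values were compared as mean log2 values within each library with an exact sign-flip permutation test over libraries; shares have exact Clopper-Pearson 95% intervals. Calculations used Python 3.11.15, pandas 2.3.3, numpy 2.4.6 and scipy 1.17.1, and matplotlib 3.10.9 drew the figures; the procedures were tested on simulated data. Gene types were matched by symbol to RefSeq (GRCh38.p14), which gave names, types and promoter and microRNA sequences only. Named genes are members with a symbol that had at least 3 in every inhibitor BCL6 or both control STAT5 libraries, were among the 10 highest by either sum, spanned a protein-coding gene start, belonged to 1 of 18 gene lists, or have a printed promoter; others are said to be chosen after their values were seen. Some results of this rule, 1 gene list among them, are not reported here. The members and lists were chosen with earlier results of these data known. The alternatives tried were other overlap, value, width and distance thresholds, merging within 500 bp, and leaving out each library.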

Additional observations from a re-analysis of the deposited data

How the results depend on the processing

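Over 6 results, 31 alternatives were computed, 2 of them added after seeing the data: 15 left the result where it was, 15 moved it and 1 turned its direction. The value difference of 0.03 on the log2 scale became -0.016 on linear values, and lay between 0.0185 and 0.0485 when an inhibitor BCL6 library was left out. The number of members moved from 391 to 259 with at least 50 shared bp, to 27 among the 100 intervals with at least 3 in every inhibitor BCL6 library (the share over all 1652 is 23.7%) and to 41 with a value in both control STAT5 libraries. It ran from 200 to 232 by listed values when a control STAT5 library was left out, and was 223 or 245 by the values of the overlapped peaks. The share with at least 3 throughout ran from 13.04% to 19.7% with an inhibitor library left out, where fewer libraries must pass, and was 2.30% at a value of at least 4. The share near gene starts was 12.8% within 250 bp. The share with both control STAT5 values was 19.7% by the overlapped peak's values and 1.53% at a value of at least 3 in both. The protein-coding share was 69.8% among the 245 members with a typed symbol. No paired analysis was possible because no test compares groups: the test made is within each inhibitor BCL6 library. Most values stand at 2, so single intervals carry little precision, and the unknown depth limits any comparison between libraries.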
